A study of Mus musculus with 2 samples.

Results

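Lymphatic endothelial cells line the vessels that take up interstitial fluid, lipid and migrating immune cells from a tissue and return them to the blood. The transcription factor Prox1 sets and maintains their identity, and signalling by Vegfc through the receptor Flt4 (VEGFR3) drives their growth. Initial lymphatics attract dendritic cells with the chemokine Ccl21 and carry the hyaluronan receptor Lyve1, while collecting vessels lose Lyve1 and form valves.

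Here they were taken from droplet single-cell RNA-seq of the dissected tendon injury site in 12-week-old mice, 14 days after surgery. One library held cells of TrkA WT mice, the control, and the other held cells of TrkA F592A mice, labelled INMPP1. TrkA is a receptor tyrosine kinase of sensory and sympathetic neurons, and F592A is known as an allele that makes its kinase sensitive to a bulky inhibitor. Each library pooled 3 mice of its genotype, and whether that inhibitor was also given to the control animals is not stated in the labels. With 1 library per genotype there was no replicate, so no test was made, and all 95% intervals below cover counting error only. Genotype and library cannot be told apart.

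A barcode counted as a lymphatic endothelial cell if it held at least 1 Prox1 UMI (a unique molecular identifier, which marks 1 captured transcript), at least 5 UMIs summed over Lyve1, Mmrn1, Ccl21a and Flt4, and at most 1 UMI of the leukocyte gene Ptprc. Only barcodes with at least 1000 UMIs, at least 500 genes and at most 15% mitochondrial UMIs were considered, and the 764 barcodes present in both libraries were left out. Of 20036 barcodes kept, 174 met the rule, 86 in the WT library and 88 in the F592A library. These cells held 1297971 and 1318881 UMIs in all, with medians of 10335 and 11243.5 UMIs per cell. No doublet caller is part of the rule, and Scrublet marked 3 members in each library. The rule used these markers to choose the cells, so their levels below describe the choice and are no finding.

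**Figure D1:**
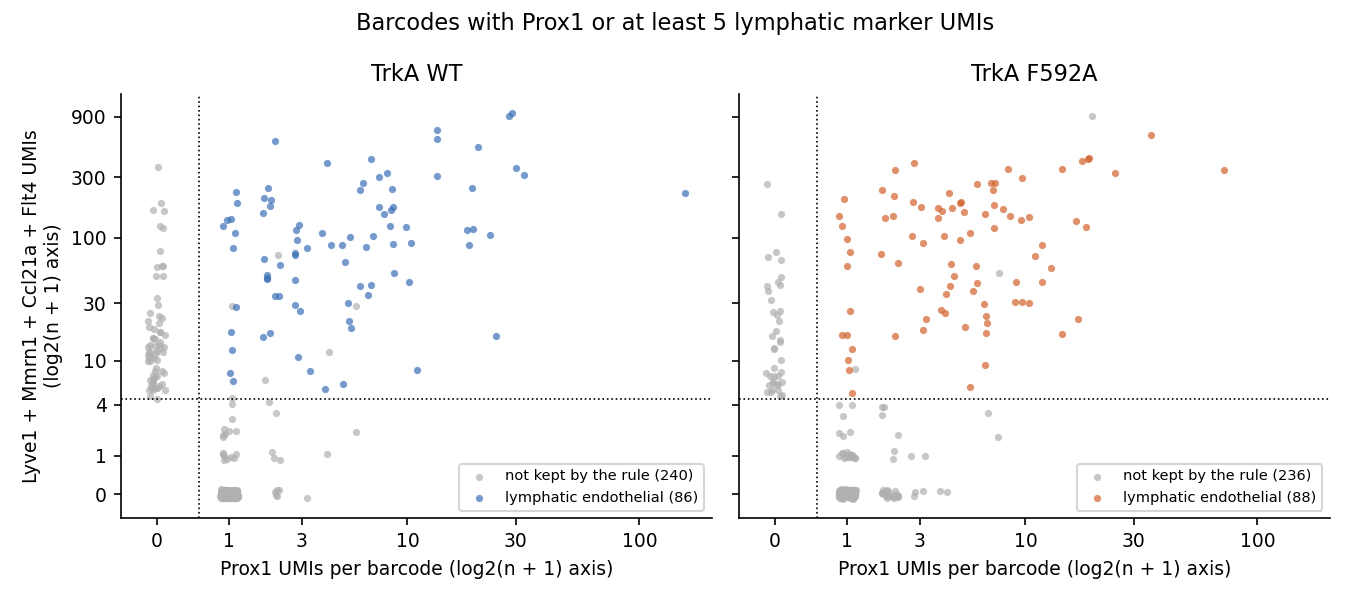
Each point is a barcode with at least 1 Prox1 UMI or at least 5 summed marker UMIs, with Prox1 UMIs on the x axis and the sum of Lyve1, Mmrn1, Ccl21a and Flt4 UMIs on the y axis, both on log2(n + 1) scales with a small random offset, 1 panel per library. The coloured points are the 86 and 88 members and the dotted lines are the rule's minimums. Grey points above both lines failed on Ptprc, and 128 WT and 156 F592A grey points lie at a marker sum of 0.

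The members carried the known lymphatic programme. Levels are counts per 1000000 UMIs of the class in a library (CPM). Prox1 stood at 589 CPM in WT and 485 in F592A, Lyve1 at 1185 and 1072, Mmrn1 (multimerin 1, a matrix glycoprotein) at 1356 and 1517, Ccl21a at 7520 and 5841, and Flt4 at 346 and 406. Reln, which encodes the secreted glycoprotein reelin and was not part of the rule, reached 327 and 326 CPM. It was detected in 73 of 86 and 77 of 88 members. The surface gene Pdpn (podoplanin) stood at 189 and 213 CPM and the co-receptor Nrp2 at 337 and 340, and both are also made by other cells of this tissue. Of the fixed markers, Reln is thus the one outside the rule that the label can be checked on. Ccl21a shares nearly all of its sequence with further Ccl21 copies in the mouse genome, whose reads the authors' counting may have assigned to it.

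Near its limits the rule met cells of both kinds. The 6 WT and 3 F592A members with a marker sum of 5 to 9 had Reln UMIs in 4 and 1 cells. Barcodes with Prox1 but no marker UMI numbered 128 in WT and 156 in F592A, were deep (medians of 25262.5 and 25747 UMIs) and had Reln in only 3 and 1 barcodes. Conversely, 38 WT and 16 F592A barcodes had at least 5 marker UMIs but no Prox1, and 14 and 8 of these held Reln.

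A share of the members also carried transcripts of tendon fibroblasts. In 14 WT and 10 F592A members more than 1% of UMIs came from Col1a1, Col1a2, Col3a1 and Dcn. These cells were deeper than the rest, with median depths of 28691.5 and 30891.5 UMIs against 8310.5 and 10069.5, and held 3 and 2 of the Scrublet doublets. Their Ccl21a level was 2782 and 483 CPM against 9505 and 7593 in the other members. The summed level of 12 stromal marker genes was 15951 and 20166 CPM over all members, and 1111 and 1396 without these cells. Markers of other cell types were low. Of the 12 macrophage markers 1 was measured, with a summed level of 233 and 141 CPM, and 6 of 7 T and NK cell markers were at 0. Red blood cell genes summed to 331 in WT and 8.34 in F592A, and 1 WT cell held 399 of the 430 WT UMIs. The part of stromal transcripts in the results was not tested, and values without these 24 cells are given beside several results below.

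Lymphatic endothelial cells made up 0.749% of the kept barcodes in WT (exact binomial 95% interval 0.599 to 0.924) and 1.03% in F592A (0.826 to 1.27). The ratio of the shares was 1.37 (Katz 95% interval 1.02 to 1.85). Blood endothelial cells were 4.77% and 6.71%, a ratio of 1.41 (1.26 to 1.58). Among lymphatic and blood endothelial cells together the lymphatic share was 13.6% and 13.3%, a ratio of 0.980 (0.743 to 1.29). The ratio was above 1 in both endothelial classes, and a difference in the balance between them was not detectable at this number of cells. Shares of barcodes depend on which cells survive dissociation, which was not tested.

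The genes furthest above their blood endothelial level included Reln, Scn3a, Slc45a3, Dtx1 and Sh3gl3, and those furthest below it Sele, Aplnr and Flt1. Blood endothelial cells were barcodes with at least 5 UMIs over Pecam1 and Cdh5, no Prox1, at most 1 UMI over Lyve1, Mmrn1 and Ccl21a and at most 1 of Ptprc, 548 in WT and 574 in F592A. Of 3071 genes at 50 or more CPM in 1 class in both libraries, 202 (6.58%) were at least 2-fold higher in lymphatic cells in both libraries and 243 (7.91%) at least 2-fold lower. Without the 24 collagen-rich members 180 and 227 of these met the same limits. Because both classes were chosen by expression, these are descriptions without a test.

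The promoters of 4 of the 20 genes highest in that ranking are shown. They were taken in order among those with a single RefSeq entry, so genes ranked above Sema3d, such as Scn3a, are not shown. Each sequence is the 250 bases before the RefSeq start (GRCm38.p6), read 5′ to 3′ on the gene's strand. Capitals mark matches, on either strand, to 5 short letter strings of factor families: GATA, FOX, SOX, ETS and the E-box, each spelled out after the sequences.
Reln, chr5:22344706-22344955, minus strand: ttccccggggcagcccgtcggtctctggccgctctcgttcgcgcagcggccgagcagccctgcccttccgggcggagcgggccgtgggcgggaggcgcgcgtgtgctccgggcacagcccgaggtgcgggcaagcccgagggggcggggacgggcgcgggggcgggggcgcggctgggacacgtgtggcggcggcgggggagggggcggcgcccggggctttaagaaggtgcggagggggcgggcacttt
Dtx1, chr5:120711670-120711919, minus strand: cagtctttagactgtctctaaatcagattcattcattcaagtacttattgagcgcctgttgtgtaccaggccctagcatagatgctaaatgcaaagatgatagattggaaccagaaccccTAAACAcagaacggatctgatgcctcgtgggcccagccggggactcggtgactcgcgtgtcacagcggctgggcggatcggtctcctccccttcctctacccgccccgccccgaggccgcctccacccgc
Sh3gl3, chr7:82174546-82174795, plus strand: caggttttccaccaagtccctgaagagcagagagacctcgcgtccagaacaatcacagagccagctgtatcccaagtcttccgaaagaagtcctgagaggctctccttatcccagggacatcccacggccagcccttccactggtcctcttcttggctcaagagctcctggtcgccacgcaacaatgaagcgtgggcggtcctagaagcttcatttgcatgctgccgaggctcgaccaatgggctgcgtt
Sema3d, chr5:12382916-12383165, plus strand: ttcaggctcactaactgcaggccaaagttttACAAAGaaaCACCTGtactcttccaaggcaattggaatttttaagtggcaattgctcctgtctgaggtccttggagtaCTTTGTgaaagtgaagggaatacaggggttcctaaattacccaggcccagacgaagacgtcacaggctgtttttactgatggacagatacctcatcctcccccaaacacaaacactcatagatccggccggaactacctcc
The Reln stretch was 80.0% G and C with 37 CG dinucleotides and held none of the 5 letter strings, whereas the Sema3d stretch was 46.8% G and C with 4 CG dinucleotides. Sema3d held the SOX letters once on each strand and 1 E-box, Dtx1 held the FOX letters once, and Sh3gl3 held none. Among 32851 mouse promoter entries of the same length, the GATA letters AGATAA were found on either strand in 9.99% and the FOX letters TAAACA in 12.0%. The SOX letters ACAAAG were found in 16.5%, the ETS letters CAGGAAG in 10.8% and the E-box letters CAGGTG in 17.2%. Over the 8 single-entry promoters of the 20 genes, FOX, SOX and E-box letters occurred in 2 each and GATA and ETS letters in none. These are letter matches and not binding sites. The Dtx1 and Sh3gl3 stretches lie within the genes as GENCODE places them (chr5:120680202-120711927 and chr7:82173840-82307419). RefSeq and GENCODE thus place the starts of both genes differently.

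Reln (chr5:21884454-22344702, minus strand, GRCm38) had the greatest contrast by the ranking used. Its 327 and 326 CPM in lymphatic cells compared with 0.355 and 0.103 in blood endothelial cells, from 3 and 1 UMIs. The log2 difference was 9.85 (8.29 to 12.1) in WT and 11.6 (9.14 to 16.9) in F592A, and stromal cells and macrophages both stayed under 1 CPM. After thinning each cell to 3000 UMIs, Reln was detected in 54.6% of WT and 58.9% of F592A lymphatic cells, and in 0.098% and 0.029% of blood endothelial cells.

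Among the 20 were 2 semaphorins. Sema3d, a secreted class 3 semaphorin, stood at 134 and 154 CPM against 2.60 and 2.17, and Sema3a, whose product acts on neuropilin and plexin receptors, at 74.0 and 101 against 3.19 and 2.99. Gap43, a growth-cone protein known from neurons, stood at 119 and 80.4 against 0.709 and 2.68. Of the 30 axon guidance genes listed, 17 were compared with blood endothelial cells: 3 were higher (Sema3a, Sema3d and the netrin receptor Unc5b) and 5 were lower. The 5 lower ones were Sema7a, Plxna2, Plxnb2, Nrp1 and Robo4, so the list was split between the classes.

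Ion and solute transport genes also ranked high. The sodium channel subunit Scn3a reached 378 and 310 CPM in lymphatic cells against 0.709 and 0.722 in blood endothelial cells, and was found in 59 and 54 members. The transporters Slc45a3 (146 and 215) and Slc38a4 (67.8 and 68.2) stayed below 0.5 CPM in blood endothelial cells. The endophilin gene Sh3gl3, with 90.1 and 77.3 CPM, had no UMI in 548 and 574 blood endothelial cells and was at least 254-fold higher in WT, against a floor of 3 UMIs over the blood class.

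Regulators and signals made up the remainder. Tbx1, a T-box factor required for lymphatic development, was at 141 and 130 CPM against 0.355 and 1.24. Dtx1, an E3 ligase that modulates Notch signalling, was at 109 and 130, with 0 and 3 UMIs in the blood cells. Il7, the cytokine that supports lymphocyte survival and that lymphatic endothelium is known to make, was at 50.8 and 54.6 CPM against 0.591 and 0.825. Fgl2, a fibrinogen-like protein, was at 981 and 1164 against 14.4 and 31.9. The polarity gene Pard6g (371 and 414) and the copper-binding ferroxidase Cp (154 and 263) were also far above their blood levels, as were Tc2n, Meis2, Ston2 and Prkcz. Gdf15, a stress-induced cytokine at 1018 and 696, stood at 735 and 795 in macrophages and came from only 35 and 48 members.

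**Figure D2:**
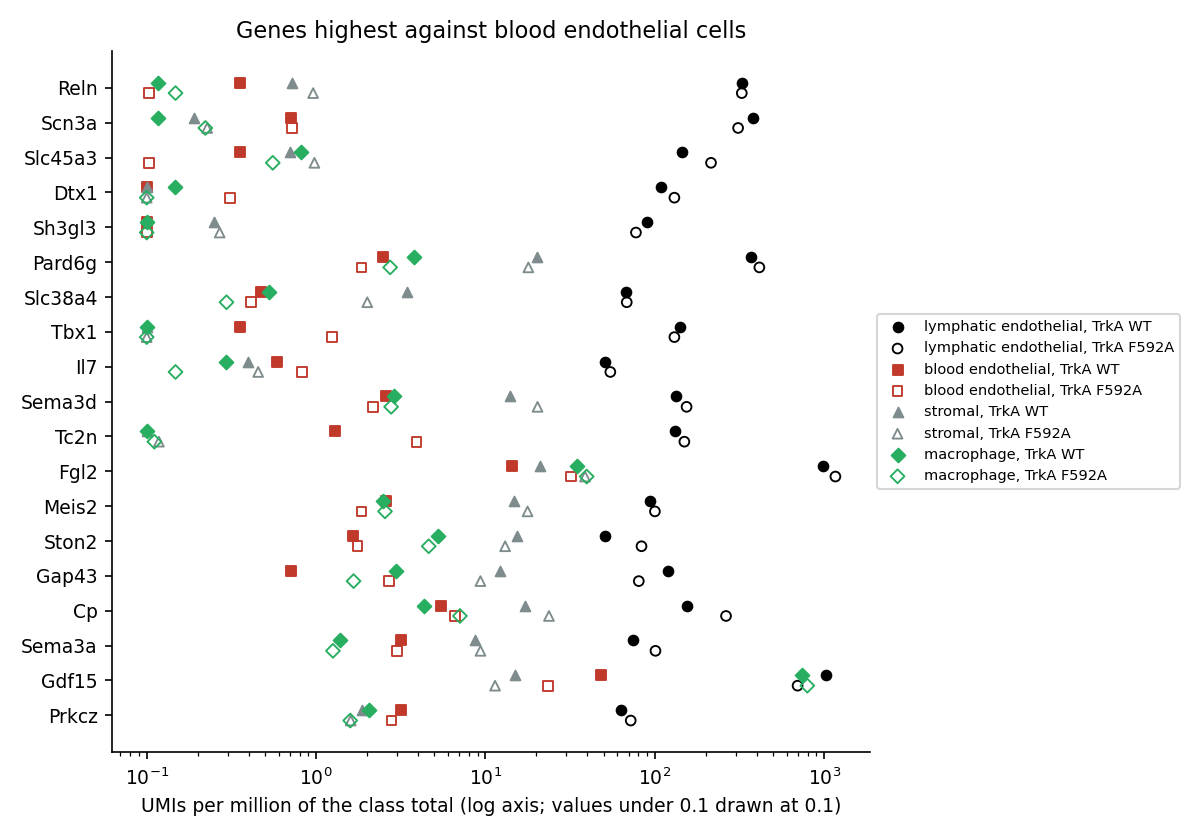
Levels in CPM (log axis) of 19 of the 20 genes ranked highest against blood endothelial cells, with filled symbols for TrkA WT and open symbols for TrkA F592A and a symbol shape for each of 4 cell classes. For 18 of these 19 genes the lymphatic symbols stand apart to the right of the other classes, and for Gdf15 the macrophages overlap them.

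Genes known from blood vessels were at the low end of the ranking. Sele (E-selectin), which captures rolling leukocytes, had 3 and 2 UMIs in all lymphatic cells, or 2.31 and 1.52 CPM against 380 and 438. Ackr1, the atypical chemokine receptor of venules, stood at 3.85 and 6.07 against 402 and 348, and the VEGF receptor Flt1 at 4.62 and 5.31 against 446 and 559. The apelin receptor Aplnr, the junction protein Jam2, the fatty acid binding protein Fabp4 and the ectonucleotidase Entpd1 ranked beside them. Of 21 blood endothelial genes compared, 19 were at least 2-fold lower and 0 higher. Junctional genes were mixed: Cldn5 (claudin 5) was higher, at 1351 and 1181 against 346 and 394, while Esam, at 19.3 and 32.6, was far below 386 and 339. Pecam1 and Cdh5 were lower as well, but the blood endothelial rule used them.

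**Figure D3:**
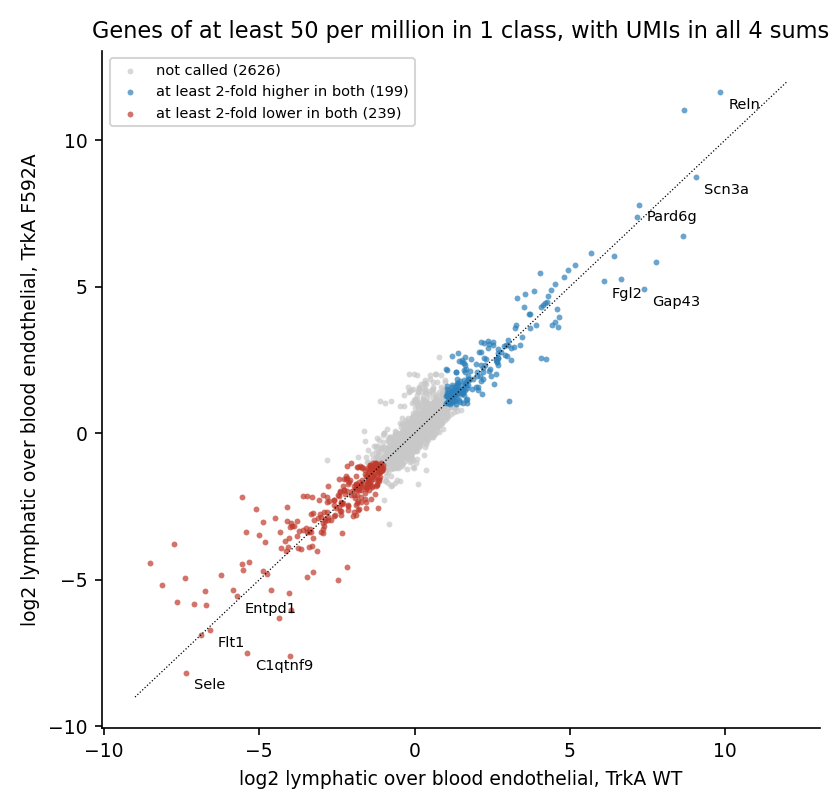
Each point is a gene at 50 or more CPM in 1 class with UMIs in all 4 sums, placed by its log2 difference between lymphatic and blood endothelial cells in TrkA WT (x axis) and in TrkA F592A (y axis). Blue and red points were at least 2-fold higher or lower in both libraries, and the genes lie along the dotted line of equal differences.

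Of 19 lymphatic surface and matrix markers compared, 18 were at least 2-fold higher than in blood endothelial cells. This list was chosen to describe lymphatic cells and includes 4 genes of the rule, so its count is no independent evidence. Besides the genes above they included Thy1 (284 and 353 against 28.8 and 14.5 CPM), the scavenger receptor Stab1 (388 and 510 against 52.3 and 64.7) and the neuropeptide precursor Nts (630 and 791 against 25.8 and 63.4). Nrp2 was the exception, and blood endothelial cells held 200 and 235 CPM. Among 13 transcription factors compared, Prox1, Tbx1 and Maf were higher, and Sox7 lower. Maf, the factor that ranked with them, stood at 230 and 358 CPM against 19.6 and 13.2.

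Members differed among themselves in UMIs of the genes that separate initial from collecting lymphatics. Member depths ran from 1112 to 59365 UMIs in WT and from 1870 to 64996 in F592A. The part of depth in the raw counts was not tested. Lyve1 was present in 70 of 86 and 70 of 88 cells, with quartiles of 2, 12 and 22.75 UMIs in WT and 1, 8.5 and 20 in F592A. Ccl21a had medians of 59.5 UMIs in both libraries and ranged from 0 to 780 in WT and 0 to 447 in F592A. Thinned to 3000 UMIs, Lyve1 was found in 72.5% (61.5 to 81.8) of WT and 69.3% (58.4 to 78.8) of F592A cells. Ccl21a was found in 91.6% (83.3 to 96.6) of WT and 79.4% (69.4 to 87.4) of F592A cells. The rules for both endothelial classes used Lyve1 and Ccl21a, so no contrast is drawn from them. Foxc2, the factor of lymphatic valves, was found in 5.71% (1.78 to 13.2) and 10.6% (4.98 to 19.1) of the thinned cells, and in 0.946% and 1.83% of blood endothelial cells. Cldn11, known from lymphatic valves, was found in 4.49% and 5.64%, and in 0.157% and 0% of the blood cells, where a count of 0 in 568 cells allows up to 0.528%. Nfatc1, also listed with the valve genes, was found in 32.6% and 35.6%, and in 17.5% and 21.2% of the blood cells. Every member held some UMIs of the collector and valve list, with a median of 0.263% of a cell's UMIs in WT and 0.261% in F592A. The list is not particular to these cells. It summed to 3549 and 3354 CPM in lymphatic and 2206 and 1844 in blood endothelial cells. Of its 12 genes compared, 2 were at least 2-fold higher than in blood endothelial cells. The list thus does not mark members as collecting or valve cells.

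Between genotypes, most lymphatic genes lay close together. The median log2 ratio of F592A over WT across 6074 measured genes (at least 50 UMIs over both libraries) was -0.09, with quartiles of -0.40 and 0.19. Of 3375 genes at 50 or more CPM in the higher library, 47 (1.39%) were at least 2-fold higher in F592A and 86 (2.55%) at least 2-fold lower. In 27 and 28 of these a single cell held over 20% of the gene's UMIs in the higher library. These 2 counts leave out the gene classes not eligible for naming, such as haemoglobin genes, so they are lower bounds. Such genes include Selp, for which 1 cell held 110 of the 118 UMIs in F592A, Il6 with 64 of 79, and the metallothioneins Mt1 with 354 of 593 and Mt2 with 157 of 291. The 24 genes named below were drawn from those without such a cell.

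The 2 libraries differed in the share of UMIs on Gm42418 and AY036118, loci that overlap ribosomal RNA repeats. It was 7.17% of lymphatic UMIs in WT and 16.3% in F592A, and it differed likewise in blood endothelial cells (8.25% and 17.3%) and stromal cells (3.68% and 9.15%). Leaving both loci out of the total raised all log2 ratios by 0.15 and gave 87 higher and 51 lower genes. With TMM factors, which raised them by 0.10, 67 were higher and 55 lower. Which direction held more genes thus depended on the scale, so ratios are to be read against the median of all genes.

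Genes higher in F592A included endothelial regulators. Procr, the endothelial protein C receptor, stood at 25.4 CPM in WT and 79.6 in F592A, a log2 ratio of 1.65 (1.07 to 2.26), with UMIs in 24 and 45 cells. Plvap, which forms the diaphragms of fenestrae and caveolae, stood at 127 and 282 (1.15, 0.88 to 1.42). Epas1 (HIF-2 alpha) was at 33.1 and 77.3 (1.22), the ETS factor Fli1 at 47.8 and 104 (1.12) and the forkhead factor Foxp2, known from collecting lymphatics, at 31.6 and 67.5 (1.10, 0.55 to 1.67). Foxp2 was detected in 23 WT and 47 F592A cells.

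The kinase scaffold Akap12 stood at 132 CPM in WT and 377 in F592A, a log2 ratio of 1.52 (1.26 to 1.78), and its ratio in blood endothelial cells was 1.28. The mitochondrial tRNA synthetase gene Lars2 was at 1191 and 2623, a log2 ratio of 1.14 in lymphatic and 1.03 in blood endothelial cells, next to the ribosomal RNA share that differed between the libraries. The aggrecan-cleaving protease Adamts5 was at 87.1 and 193 (1.15), the interferon-inducible Slfn5 at 36.2 and 83.4 (1.20), and Ralgps2 and Usp19 at log2 ratios of 1.20 and 1.16. The ERK phosphatase Dusp6 was at 37.0 and 85.7 (1.21), but its log2 ratio was -0.000232 when each cell counted equally. Without the collagen-rich members Slfn5, Ralgps2 and Fli1 were at 0.97, 0.98 and 0.99, just under 2-fold.

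Genes lower in F592A included DNA replication genes and small metabolic enzymes. Pclaf, which binds PCNA at replication forks, stood at 83.2 CPM in WT and 15.9 in F592A, a log2 ratio of -2.39 (-3.13 to -1.70), in 14 and 5 cells. DNA ligase Lig1 stood at 54.7 and 15.9 (-1.78) and the fork protection factor Tipin at 57.0 and 21.2 (-1.43). Mpc1, which carries pyruvate into mitochondria, was at 148 and 56.1 (-1.40), and was found in 56 and 33 cells. The tubulin-binding Tppp3 was at 366 and 139 (-1.40) and Gucy1b1, a subunit of the nitric oxide receptor, at 97.8 and 40.2 (-1.28, -1.77 to -0.81). Gmpr, Lage3, Galk1, Abhd14a, Gstm5 and Polr2e had log2 ratios between -1.65 and -1.35. In blood endothelial cells of the same libraries Gucy1b1 was the one of these 12 with a positive log2 ratio, 0.80, at only 1.54 and 2.68 CPM.

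**Figure D4:**
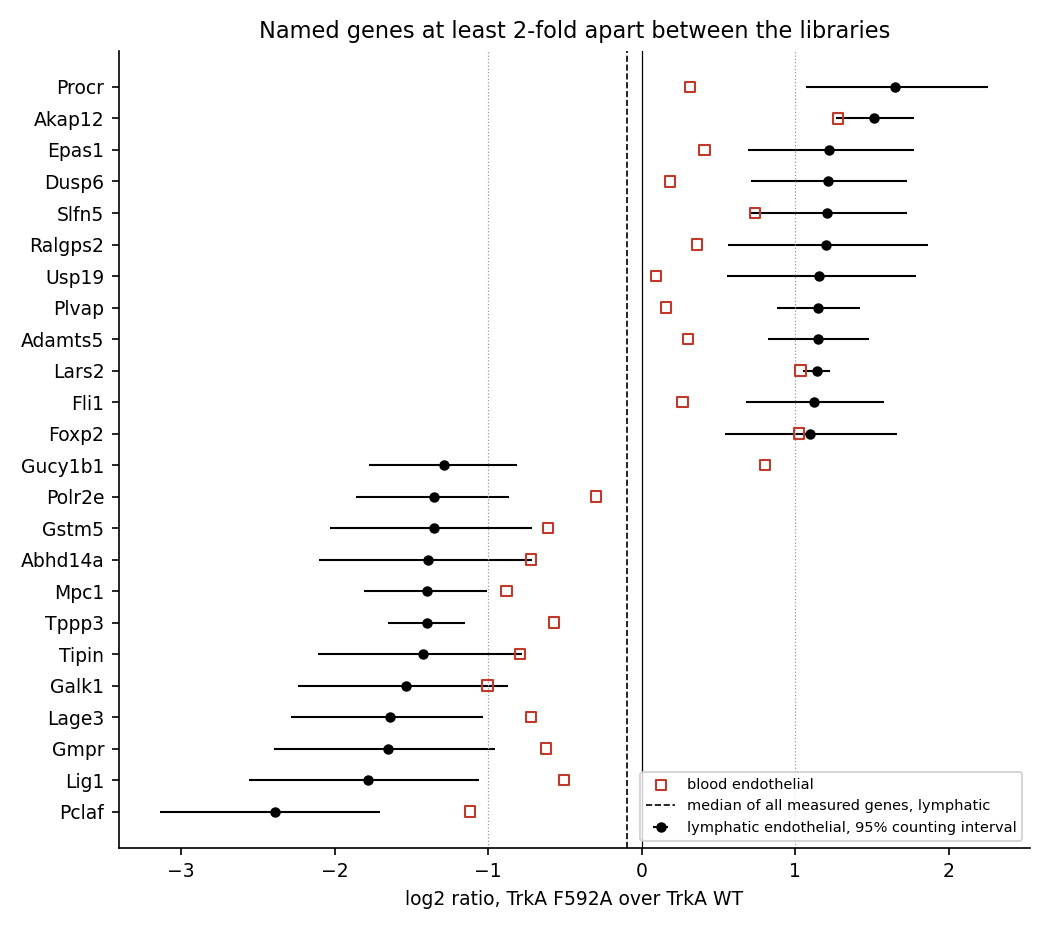
Log2 ratio of TrkA F592A over TrkA WT for the 24 named genes, with black points and bars for lymphatic endothelial cells and their 95% counting intervals, and open squares for blood endothelial cells of the same 2 libraries. The dashed line is the median of all measured genes, -0.09. For Akap12, Lars2 and Foxp2 the blood value lies at or near the lymphatic one, whereas for Procr, Dusp6, Usp19 and Plvap it lies between 0.09 and 0.31. The blood value of Foxp2 rests on only 0.709 and 1.44 CPM.

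Cell cycle genes were lower in F592A as a group. Of 22 measured genes, 17 were at least 1.5-fold lower and 0 higher, where 13.9% and 5.99% of all measured genes passed these limits, and the median log2 ratio was -0.95. The topoisomerase Top2a was at 131 and 40.9 CPM (-1.68, -2.15 to -1.23), the mitotic survivin gene Birc5 at 93.2 and 19.0 (-2.30) and the microtubule regulator Stmn1 at 275 and 140 (-0.98, -1.24 to -0.72). The proliferation marker Mki67, at 70.9 and 53.1, had an interval that included 0 (-0.89 to 0.05).

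That difference rested on few cells. In WT 5 cells held 60.9% of the 2300 cell cycle UMIs and 1 cell held 26.1%, and in F592A 5 cells held 55.7% of 1155. The typical member differed little: the median share of a cell's UMIs on these genes was 0.0366% in WT and 0.0348% in F592A, with maxima of 1.68% and 1.02%. Thinned to 3000 UMIs and averaged over all draws, 42.5% (31.6 to 54.0) of WT and 35.5% (25.5 to 46.6) of F592A cells had at least 2 cell cycle UMIs, a ratio of 0.836 (0.571 to 1.22). Unthinned, the shares were 79.1% and 81.8%. Mature neutrophils, which do not divide, gave 25.1% of 28 and 24.1% of 66 cells deep enough to thin, at class median depths of 2667 and 3140 UMIs. That level is the background of this measure, and its WT interval of 10.8 to 45.0 overlapped the lymphatic one. The same ratio was 0.803 in blood endothelial cells, 0.857 in macrophages and 0.686 in stromal cells, and the 22 genes had a median log2 ratio of -0.79 in blood endothelial cells.

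The Notch list had its median above that of all genes. Of 8 measured genes 4 were at least 1.5-fold higher and 0 lower (Dll1, Dll4, Hey1 and Rbpj), with a median log2 ratio of 0.61. Of all measured genes 5.99% were at least 1.5-fold higher and 13.9% lower, and the 1.5-fold counts of the lists below stand beside these shares. Without the collagen-rich members 3 of the 8 were higher, against 8.92% of all measured genes, and the median was 0.48. The receptor Notch1 stood at 106 and 158 CPM (0.58, 0.26 to 0.90), just short of 1.5-fold. The ligands Dll1 (14.6 and 31.8) and Dll4 (16.9 and 31.8) had ratios of 1.12 and 0.91, from 19 to 42 UMIs each. Rbpj, the DNA-binding partner of the Notch intracellular domain, was at 58.6 and 97.1 (0.73), but at 0.25 without the collagen-rich members. Hes1, a direct target, was at 262 and 328 (0.32, 0.11 to 0.53), while Notch2 and Jag1 were at -0.02 and -0.08. In blood endothelial cells the same 8 genes had a median of 0.21.

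Lymphatic transcription factors and valve genes held several members higher in F592A. Of 17 measured transcription factors, 5 were at least 1.5-fold higher and 1 lower, with a median of 0.24. The shares over all measured genes were 5.99% and 13.9%. In blood endothelial cells 16 of these genes had a median of 0.25, so the list's median was not particular to lymphatic cells. Foxc1, at 20.0 and 39.4 CPM (0.98, 0.27 to 1.72), and its relative Foxc2, at 16.9 and 29.6 (0.80, 0.01 to 1.63), are both known from valve formation. Maf was at 230 and 358 (0.64, 0.43 to 0.85) and Sox7 at 30.0 and 59.9 (1.00). Klf2, which responds to laminar shear, was lower at 609 and 394 (-0.63, -0.79 to -0.46), and at -0.52, under 1.5-fold, without the collagen-rich members, whereas its relative Klf4 was at 579 and 779 (0.43). Prox1 itself had a ratio of -0.28, which became 0.01 without the 1 WT cell that held 155 of its 765 UMIs.

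Among 17 measured collector and valve genes 3 were at least 1.5-fold higher and 1 lower, with a median of -0.06. Of all measured genes 5.99% and 13.9% passed these limits. Without the collagen-rich members 3 were higher and 3 lower, with a median of 0.07, against 8.92% and 16% of all measured genes. Efnb2, the ephrin required for valves in collecting vessels, was at 63.9 and 135 CPM (1.08, 0.69 to 1.47), in 33 and 58 cells, and at 1.21 without the collagen-rich members. Its receptor Ephb4 was at 87.1 and 112 (0.37, 0.00 to 0.73). The planar polarity gene Celsr1 was lower, at 43.1 and 26.5 (-0.70), but at 0.33 after thinning. Itga9, Nfatc1, Piezo1 and Gja1 all stayed within 1.5-fold. Of 7 capillary genes 0 were at least 1.5-fold higher and 1, Itih5, was lower (-0.62). It was at -0.03 without the collagen-rich members and at 0.42 without the WT cell that held 48 of its 92 UMIs.

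Most growth factor receptors stayed within 1.5-fold between the libraries. Of 13 measured genes of the VEGF, angiopoietin and adrenomedullin axis, 0 were at least 1.5-fold higher and 1 was lower, with a median of 0.01. Flt4 had a ratio of 0.23 and Kdr (VEGFR2) 0.37, at 197 and 255 CPM. Angpt2, the angiopoietin that lymphatic growth requires, was at 224 and 222. Ramp2, which makes Calcrl an adrenomedullin receptor, was the lower member, at 534 and 325 (-0.71, -0.89 to -0.54), while Calcrl was at 226 and 214. The ligand Vegfc had 2 UMIs in each library, at or below the floor of 3 UMIs.

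The adhesion genes Icam1, Icam2 and Vcam1 were lower in F592A. Icam1, which binds leukocyte integrins, stood at 498 and 253 CPM (-0.98, -1.17 to -0.78) with UMIs in 56 cells of each library, and kept -0.98 without the collagen-rich members. In blood endothelial cells it was 738 and 761. Icam2 was at 111 and 50.8 (-1.13), though 1 cell held 29 of its 144 UMIs in WT, and Vcam1 at 59.3 and 13.6 (-2.12), with 31 of 77 WT UMIs in 1 cell. Without the collagen-rich members Vcam1 had 13 and 5 UMIs and a ratio of -1.50, with an interval that included 0 (-3.34 to 0.08). S1pr1, the receptor through which endothelium senses sphingosine 1-phosphate, was higher at 109 and 202 (0.89, 0.59 to 1.20), in 59 and 74 cells. Ccl21a was at a ratio of -0.36 (-0.41 to -0.32).

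The leukocyte trafficking and chemokine list, which holds these genes, depended on the collagen-rich cells. Of its 19 measured genes 3 were at least 1.5-fold higher and 7 lower, with a median of -0.34, and over the same genes the median was 0.06 without those cells. Then 3 were higher and 4 lower, where 8.92% and 16% of all measured genes passed the same limits. Ccl2, at 331 and 169, Ccl7, at 103 and 62.2, and Cxcl1, at 393 and 232, were at -0.97, -0.73 and -0.76, and at 0.24, 0.65 and -0.05 without them. Macrophages of the WT library held 2406, 1661 and 2268 CPM of these 3 genes, and stromal cells 642, 413 and 837.

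The MHC class I and interferon lists had medians below that of all genes. Of 8 measured genes of MHC class I presentation 3 were at least 1.5-fold lower and 0 higher (median -0.27), namely the immunoproteasome genes Psmb10 (42.4 and 15.2, -1.48) and Psmb8 (37.8 and 20.5, -0.88) and the nonclassical H2-T23 (150 and 99.3, -0.60). H2-K1 and H2-D1 were both at -0.27. Over all measured genes 13.9% were at least 1.5-fold lower and 5.99% higher. Of 5 measured interferon response genes 1 was higher and 1 lower, with a median of -0.45, and -0.52 without the collagen-rich members. The higher one, Ifi27l2a, was at 15.4 and 55.4 CPM (1.84), with 37 of 73 F592A UMIs in 1 cell. The lower one, Isg15, was at 85.5 and 27.3 (-1.65, -2.23 to -1.09), with 25 of 111 WT UMIs in 1 cell. Of 7 MHC class II genes none was measured.

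Blood endothelial genes, low in these cells, were more often higher in F592A than lower, with 5 of 13 measured at least 1.5-fold higher and 1 lower (median 0.57). The 5 were Plvap, Selp, Hey1, Dll4 and Gpihbp1, and the Selp value came from 1 cell. The lower one, Rgcc, was at 60.1 and 12.9 CPM (-2.22), and at -0.31 without the collagen-rich cells. In blood endothelial cells the 13 genes had a median ratio of 0.03. Over all genes measured in lymphatic cells, 5.99% were at least 1.5-fold higher and 13.9% lower.

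Both metallothioneins, which bind zinc and copper, were higher in F592A. Mt1 was at 77.8 and 450 CPM (2.53, 2.22 to 2.85) and Mt2 at 33.9 and 221 (2.70), mostly from the single cells given above. Without the collagen-rich members Mt1 had 18 and 84 UMIs, a log2 ratio with an interval of 1.36 to 2.93, and Mt2 had 6 and 16, with an interval of -0.13 to 2.94. The rise was not particular to lymphatic cells. In blood endothelial cells, stromal cells and macrophages Mt1 was at log2 ratios of 0.92, 1.24 and 0.71, and Mt2 at 0.73, 1.28 and 0.80. Over all other kept barcodes Mt1 stood at 527 and 1132 CPM, above its lymphatic level. Of 23 immediate early genes 3 were at least 1.5-fold higher and 0 lower (median 0.23): Fos at 626 and 1102 CPM (0.81, 0.69 to 0.94, but 0.56 without the collagen-rich members), Egr1 at 220 and 358 (0.70) and Dusp5 at 13.9 and 33.4 (1.27). These genes are known to respond to enzymatic dissociation, whose part was not tested, and in blood endothelial cells their median was -0.09. Of 13 heat shock chaperones Bag3 (56.2 and 108), Hsph1 (87.8 and 158) and Hspb1 (143 and 219) were higher and 0 lower. Of 19 glycolysis and hypoxia genes 3 were at least 1.5-fold lower and 1 higher (median -0.39), near the 13.9% and 5.99% of all measured genes, and Gapdh stood at 699 and 472 (-0.57, -0.72 to -0.42). Of 40 nuclear genes of oxidative phosphorylation 5 were at least 1.5-fold lower and 1 higher, also near these shares.

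**Figure D5:**
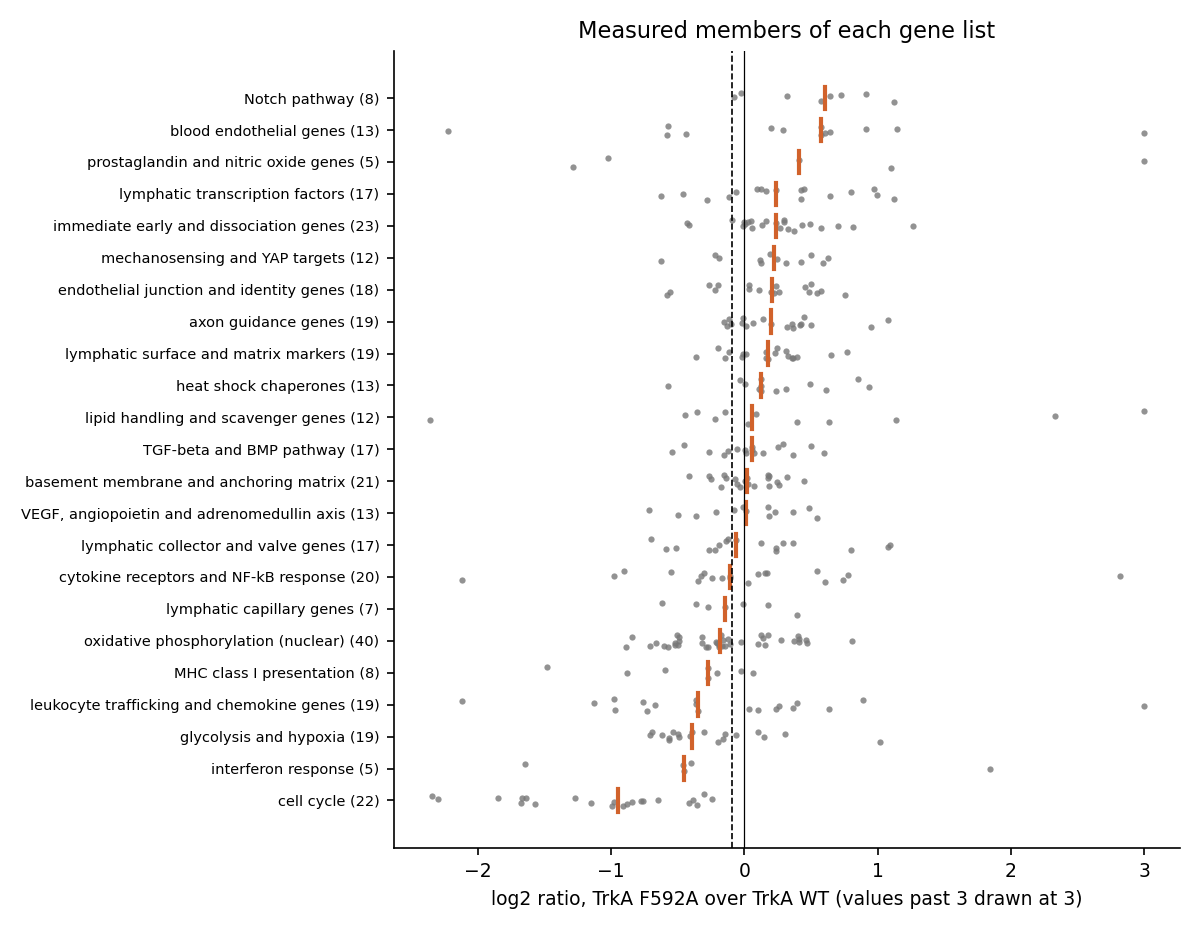
Each grey point is a measured gene of a list, placed by its log2 ratio of TrkA F592A over TrkA WT in lymphatic endothelial cells, and the orange bar is the list's median. The number of measured genes stands in brackets, the solid line is 0 and the dashed line is the median of all measured genes, -0.09. Lists with fewer than 5 measured genes and marker lists of other cell types are not drawn. Among the lists drawn, Notch has the highest median, 0.61, and cell cycle the lowest, -0.95.

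The listed basement membrane and anchoring matrix genes stayed within 1.5-fold. Of 21 measured basement membrane and anchoring genes 0 were 1.5-fold apart in either direction (median 0.02). The laminin chain Lama4 stood at 305 and 312 CPM and Col4a1 at 782 and 746. Semaphorins and their receptors also differed little, with 2 of 19 axon guidance genes higher (Efnb2 and Sema6d) and 0 lower, and Sema3d at 134 and 154.

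Of the listed neurotrophin genes, 1 passed the minimum for measurement. It was Sorcs2, a sortilin-family receptor, with 26 and 29 UMIs (log2 ratio 0.13, -0.68 to 0.96). Bdnf, a neurotrophin ligand, had 9 UMIs in each library. Counts of 3' ends do not read the codon that F592A alters, so the genotype labels could not be checked from these data.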

How the data were processed

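The deposited files hold raw UMI counts per gene and barcode, made by the authors with Cell Ranger. Its version is 6.0.1 per the file headers and 2.1.1 per the submitters' processing notes, which also list mm10 and Seurat, and which of both versions applies is open. The libraries held 14868 and 10677 barcodes with 222874195 and 181472230 UMIs. The 2 samples were grouped by the genotype in their labels. Counts were summed over member cells per library and divided by the class total, giving CPM with exact Poisson intervals. Log2 ratios have exact conditional binomial intervals, shares exact binomial (Clopper-Pearson) intervals and ratios of shares Katz intervals, all at 95%. UMI counts of 1 cell are not independent samples of a genotype, and with 1 library per genotype no p-value was computed. Shares at a fixed depth are exact means over all draws of 3000 UMIs per cell, leaving out 5 WT and 2 F592A lymphatic cells that were shallower. Scrublet was run through scanpy 1.11.5 as an alternative only. Interval code was checked on simulated counts.

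Genes named between genotypes were the 12 highest and 12 lowest log2 ratios among genes at least 2-fold apart, with 50 or more CPM and at least 10 cells in the higher library, no cell with over 20% of its UMIs and a level not below 1/4 of that in all other barcodes. Against blood endothelial cells the 20 highest and 10 lowest were taken, by the smaller of the 2 libraries' differences, and from each of the gene lists up to 4 genes, by summed CPM or a 1.5-fold difference, and further members were named after their values were seen. Mitochondrial, ribosomal, haemoglobin, immunoglobulin and unnamed genes were not eligible for the first 2 groups. The same held for the sex-linked Xist, Tsix, Ddx3y, Uty, Kdm5d and Eif2s3y, while other genes of the X chromosome, such as Lage3, were eligible. The members, lists and rules were chosen with earlier results of these data known. Gene positions are from GENCODE (GRCm38) and promoters from RefSeq, where 15 of the 20 genes had an entry. Values of 3 genes that these rules or lists would name are not reported here.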

Additional observations from a re-analysis of the deposited data

How the results depend on the processing

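No paired analysis was possible because each genotype has 1 library. Scaling by TMM or by the median of ratios raised all log2 ratios by 0.10 and 0.09, and 55 and 57 genes, against 86, were at least 2-fold lower in F592A. Without Gm42418 and AY036118 in the total, 87 genes were higher and 51 lower, and Lyve1 turned from -0.14 to 0.00534. Thinning to 3000 UMIs gave 194 higher and 289 lower, with fewer UMIs behind each ratio, and turned Celsr1 to 0.33, Ccl2 to 0.0697, Smad1 to -0.10 and Mrc1 to -0.57. Requiring 2 Prox1 UMIs gave 144 lower genes, and turned Tgfb2 to -0.17, Ptgis to -0.43 and the prostaglandin and nitric oxide list to -0.43; the cause was not tested. The share of cells with at least 2 cell cycle UMIs was 24.6% in F592A when thinned to 2000 UMIs. With at least 3 such UMIs it was 28.2% in WT and 19.4% in F592A, as fewer UMIs or a higher limit must lower it. Because of the neutrophil background given above, this measure is not a share of dividing cells. Leaving out collagen-rich members, an alternative chosen after seeing the data, turned Ccl2 to 0.24, Ptgs2 to 0.47 and the chemokine list to 0.13 over the genes then measured. A mean of per-cell levels turned Dusp6 to -0.000232. Without the cell that held most of its UMIs, Prox1 was 0.0106, Lyve1 0.0329 and Itih5 0.42 (against -0.28, -0.14 and -0.62). Over its alternatives the ratio of lymphatic shares stayed between 1.34 and 1.49, and the genes apart from blood endothelial cells numbered 195 to 224 higher and 239 to 311 lower. Depth limits genes under 50 UMIs over both libraries.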
